A study of Mus musculus with 24 samples.

Results

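The cytosolic chaperonin, called CCT or TRiC, is built from the products of 8 genes, Tcp1, Cct2, Cct3, Cct4, Cct5, Cct6a, Cct7 and Cct8, and their mRNAs were followed here across the polysome gradients of mouse erythroblasts. The members were chosen by symbol, and each gene was read from its brightest probe set over all arrays. The array holds 25 probe sets for these genes, of which 22 passed the filter on low signal, and all 8 genes are among the 11035 genes tested (18194 genes on the array have a probe set with 1 symbol). Cells were immortalized mouse erythroblasts grown with Epo, SCF and Dex without serum, in 4 groups of 3 gradients each: no construct (wt in the titles), a control construct (ev in the titles and sc in the shRNA field, neither spelled out), an shRNA against Rps19 and an shRNA against Rpl11. Constructs were delivered by lentivirus and harvest, with cycloheximide, followed 3 days later. Every gradient was divided into a polysomal pool and a subpolysomal pool of the remaining fractions, and 7 µg of RNA per pool went onto its own array, giving 24 arrays from 12 gradients. Neither the shRNA sequences nor the origin of the immortalized line is given in the labels, and the description of Rps19 shRNA replicate 3 alone carries the word puro. The labels name the gradients of a group biological replicates.

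Rps19 and Rpl11 are proteins of the small and large ribosomal subunits, and loss of a functional copy of either gene causes Diamond-Blackfan anaemia, in which red cell precursors fail. The chaperonin is a pair of stacked rings, each made of 1 copy of every subunit, that encloses newly made proteins and uses ATP to close a lid over them. Actin and tubulin depend on it to fold, as do several proteins with WD40 repeats, and the prefoldin complex hands unfolded actin and tubulin over to it. Since a ring needs every subunit, the mRNAs of the subunits are a set whose products are used in equal numbers.

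Recruitment is the log2 polysomal minus the log2 subpolysomal signal of a gradient, so that 0 means equal scaled signal in both pools and a positive value means more of it in the polysomal pool. Level is the mean of both log2 signals, used in place of total mRNA. Group values are means ± SD of 3 gradients, and differences carry the standard error (SE) of a limma fit over all 12 gradients with p adjusted by Benjamini-Hochberg over 11035 genes. A gene counts as changed at an adjusted p below 0.05. Arrays were each scaled to the same mean by the authors, so recruitment is relative to the average transcript of the pool.

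The target checks followed the labels: the level of Rps19 fell by 1.53 on the log2 scale with its own shRNA (SE 0.16, limma adjusted p = 0.00369) and that of Rpl11 fell by 2.66 (SE 0.25, limma adjusted p = 0.0011). The 6 arrays of the Rpl11 shRNA stood apart in signal. The 3′ over 5′ signal of their Gapdh controls, on the log2 scale, ran from 0.99 to 3.31 in the polysomal pool and from −0.46 to 3.90 in the subpolysomal pool, against −0.40 to 0.42 and −0.42 to −0.23 in the other groups. Their median signals were 46.8 to 49.0 and 65.7 to 86.7, against 58.9 to 68.9 and 97.2 to 125 elsewhere. The 3′ over 5′ signal of the Actb controls set them apart less. It ran from 0.62 to 1.35 and from 0.54 to 1.96, against 0.55 to 0.86 and 0.44 to 0.98 elsewhere. Both arrays of Rpl11 shRNA replicate 1 lay within the ranges of the other groups on Actb. Of 9 erythroid markers on the array with 1 symbol, 8 passed the filter (Gata1, Klf1, Tal1, Epor, Kit, Tfrc, Alas2 and Slc4a1, with Hba-a1 below it). Other cell types gave 0 of 3 lymphoid, 2 of 6 myeloid, 1 of 4 fibroblast and 3 of 4 megakaryocyte markers, among them Pf4 at a mean log2 signal of 11.44.

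The sequences around the annotated transcription starts are shown because mRNAs that begin with a C and a run of pyrimidines, the TOP mRNAs, are a known class that moves between polysomes and the free pool. RefSeq start windows (GRCm38.p6) matched 7 of the 8 subunits. Cct4 is named only. Each window below holds 30 bases before the annotated start and 30 from it onward, and capitals mark the longest run of pyrimidines within 10 bases on either side of the start, or the first such run where several are equally long.
Tcp1 (chr17:12916299-12916358, plus strand): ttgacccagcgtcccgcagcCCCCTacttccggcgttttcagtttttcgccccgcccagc
Cct2 (chr10:117063823-117063882, minus strand): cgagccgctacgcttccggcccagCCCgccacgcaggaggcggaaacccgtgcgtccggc
Cct3 (chr3:88297105-88297164, plus strand): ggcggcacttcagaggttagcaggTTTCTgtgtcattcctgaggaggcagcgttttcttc
Cct5 (chr15:31601817-31601876, minus strand): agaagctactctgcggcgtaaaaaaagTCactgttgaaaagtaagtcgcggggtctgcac
Cct6a (chr5:129787326-129787385, plus strand): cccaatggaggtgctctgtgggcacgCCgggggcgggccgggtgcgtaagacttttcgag
Cct7 (chr6:85451475-85451534, plus strand): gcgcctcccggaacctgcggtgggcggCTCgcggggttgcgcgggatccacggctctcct
Cct8 (chr16:87495840-87495899, minus strand): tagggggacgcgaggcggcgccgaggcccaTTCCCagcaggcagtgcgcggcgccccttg

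A C at the annotated start followed by at least 4 pyrimidines was found in 0 of these 7 windows and in 2.51% of all 32851 RefSeq start windows. The marked run is 5 bases long in Tcp1, Cct3 and Cct8, a length that 34.4% of all windows reach, 3 bases in Cct2 and Cct7 (77.4%) and 2 bases in Cct5 and Cct6a (95.6%). Equally long runs that are not marked occur in Tcp1 (2 more), Cct3 (1), Cct5 (2) and Cct6a (1). The run of Cct8 begins at the annotated start itself, with a T, and an unmarked run of Cct5 also begins there. In the wider window of 250 bases before and 50 bases after the start, the heat shock element letters GAANNTTC or TTCNNGAA, which read the same on both strands, occur in Cct5 and Cct6a and in 15.1% of all windows. The CCAAT box, searched as CCAAT or ATTGG for the 2 strands, occurs in Tcp1, Cct3, Cct6a and Cct7 and in 37.4% of all windows, and the palindromic E-box CACGTG in 0 of 7 and in 7.15%. These matches describe the letters of the windows, and annotated starts need not be the starts used in erythroblasts.

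In cells with the control construct, every subunit mRNA lay on the subpolysomal side. All 8 of 8 were past the threshold as lower in the polysomal than in the subpolysomal pool, where 18.9% of all genes tested were (limma), and the median over the subunits was −0.81 against −0.08 over all genes. With no construct the same held for 7 of 8 (background 21.4%), with a median of −0.81 against −0.09. When each array was centred on its median, which moved the median of all genes in the control construct from −0.08 to 0.56, the median of the subunits became −0.17, Cct8 turned to 0.07, 2 of 8 remained past the threshold as lower, and all 8 still lay below the median of all genes. 
Tcp1, the alpha subunit and the first of the family to be described, from the mouse t-complex, lay lowest. Its polysomal share of the summed signal was 20.8%, 21.7% and 19.9% in the 3 control construct gradients and 17.4%, 21.0% and 20.7% with no construct. As recruitment this was −1.93 ± 0.08 (limma adjusted p = 3.2e-06 against 0) and −2.03 ± 0.19 (limma adjusted p = 1.9e-06), and 0.725% and 0.761% of all genes lay lower. Tcp1 was the lowest of the 8 in 12 of 12 gradients. Cct5, the epsilon subunit, altered in a human sensory neuropathy, came next at −1.40 ± 0.32 and −1.42 ± 0.15, with no overlap with Tcp1 or with the next subunit in either group.

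The other 6 subunits followed closely on each other in the control construct. Cct6a, the zeta subunit, had a recruitment of −0.99 ± 0.06, and Cct7, the eta subunit, −0.87 ± 0.27. Cct4, the delta subunit, mutated in a rat strain with sensory neuropathy, had −0.75 ± 0.13, and Cct3, the gamma subunit, −0.67 ± 0.30. Cct2, the beta subunit, altered in a human retinal dystrophy, had −0.66 ± 0.15. Cct8, the theta subunit, closed the order at −0.57 ± 0.16. Each of these overlapped with its neighbour in the order, and with no construct Cct4 (−1.04 ± 0.20) stood before Cct6a (−0.86 ± 0.06). Cct8 was the highest of the 8 in 11 of 12 gradients, the exception being control construct replicate 2, where Cct3 was. With no construct the recruitment of Cct8 was −0.34 ± 0.25 and missed the threshold (limma adjusted p = 0.0652).

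**Figure D1:**
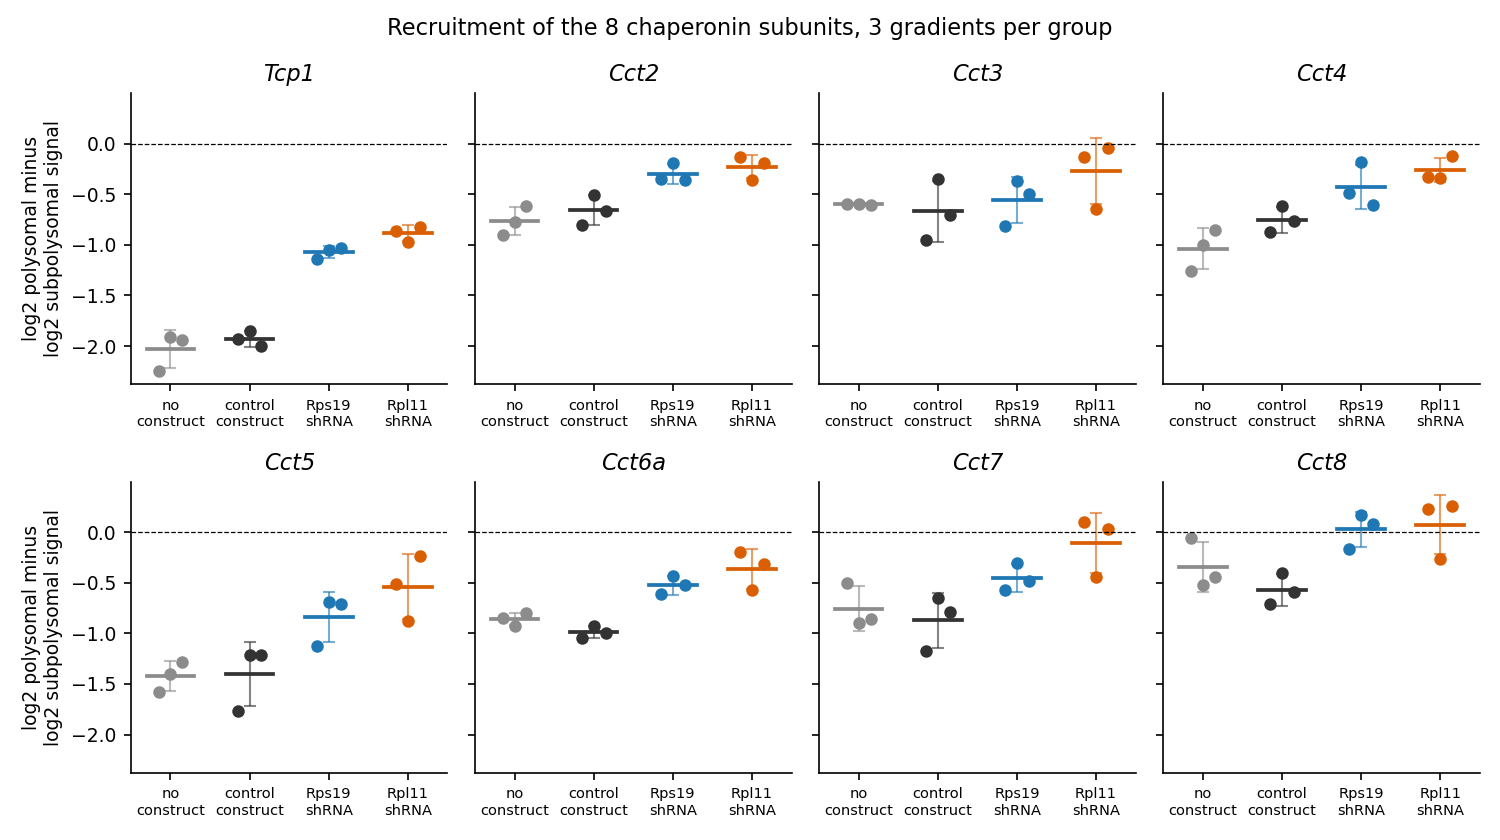
Recruitment (log2 polysomal minus log2 subpolysomal signal, vertical axis) of each subunit in the 4 groups (horizontal axis), with 1 point per gradient, the mean as a bar and the SD as whiskers, and a dashed line at 0. Tcp1 sits near −2 in both control groups and between −1.14 and −0.82 with either shRNA, and the groups of Cct3 overlap.

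With the Rps19 shRNA the question was whether loss of a small subunit protein moves these mRNAs between the pools. Tcp1 was the 1 subunit that changed. Its recruitment was −1.93, −1.85 and −2.004 in the control construct gradients and −1.14, −1.05 and −1.03 with the Rps19 shRNA, so the groups lay well apart. The difference was 0.86 (SE 0.13, limma adjusted p = 0.0300), a 1.81-fold higher ratio of polysomal to subpolysomal signal, and the polysomal share went from 20.8% ± 0.88 to 32.2% ± 0.86. Tcp1 was thus 1 of 8 subunits called higher, against 0.290% of all genes called higher (0.870% in either direction).

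The call did not hold with fewer gradients. Without any 1 of the 6 it rests on, the fit kept the difference between 0.82 and 0.89 but gave a limma adjusted p from 0.0818 to 0.143, and of 10 other settings of the processing 5 kept the call, with differences from 0.52 to 0.87. An unadjusted p below 0.05, in either direction, was found for 5 of the 8 subunits, Tcp1 included, and for 1648 of all 11035 genes. The other 7 subunits did not pass the adjusted threshold. Their differences were 0.60 for Cct8 (SE 0.19), 0.56 for Cct5 (SE 0.22), 0.46 for Cct6a (SE 0.14), 0.42 for Cct7 (SE 0.20), 0.36 for Cct2 (SE 0.14), 0.32 for Cct4 (SE 0.16) and 0.11 for Cct3 (SE 0.21), at limma adjusted p from 0.14 for Cct6a to 0.866 for Cct3. For 7 of 8 subunits, the exception being Cct3, the 3 values lay above all 3 control construct values, as they did for 12.7% of all genes. The median difference was 0.44 over the subunits and 0.01 over all genes.

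Cct8 shows how near to even some subunits came. Its recruitment was −0.71, −0.40 and −0.59 with the control construct and −0.16, 0.17 and 0.08 with the Rps19 shRNA, where the group mean was 0.03 ± 0.17 and not past the threshold against 0 (limma adjusted p = 0.883). The other 7 subunits remained past it on the subpolysomal side with the Rps19 shRNA, as were 19.0% of all genes, and their means ran from −1.07 for Tcp1 to −0.30 for Cct2. Without Rps19 shRNA replicate 1, 2 or 3 the calls numbered 3, 5 and 4, with Tcp1, Cct5 and Cct6a past the threshold each time and Cct2 and Cct7 past it in none. With each array centred, 5 of these 7 turned above 0 while 7 of 8 subunits still lay below the median of all genes. Centring moved Cct8 to 0.68, past the threshold on the polysomal side (limma adjusted p = 0.00958), where the median of all genes was 0.57. Its nearness to 0 thus depends on the scaling.

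With the Rpl11 shRNA, a large subunit protein, 3 of 8 subunits had higher recruitment than with the control construct, against 2.11% of all genes called higher. Tcp1 was −0.86, −0.97 and −0.82 in the 3 gradients, again apart from the control construct values given above. The difference was 1.04 (SE 0.13, limma adjusted p = 0.0087), and the polysomal share rose from 20.8% ± 0.88 to 35.2% ± 1.23. This call held with each gradient left out in turn (limma adjusted p from 0.0144 to 0.0403) and in 9 of 10 other settings, the exception being the fit to the compared groups alone (0.0996).

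Cct5 had recruitments of −1.77, −1.22 and −1.22 with the control construct and −0.52, −0.87 and −0.23 with the Rpl11 shRNA, a difference of 0.86 (SE 0.22, limma adjusted p = 0.0482). Cct6a had −1.04, −0.92 and −0.997 against −0.19, −0.58 and −0.32, a difference of 0.63 (SE 0.14, limma adjusted p = 0.0273). In both, the lowest Rpl11 shRNA gradient, replicate 2, still lay above the highest control construct gradient. These 2 calls were lost with 5 of 6 gradients left out in turn, remaining past the threshold without Rpl11 shRNA replicate 2, and were kept in 5 of 10 other settings each.

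The other 5 subunits missed the threshold with the Rpl11 shRNA. Cct7 had a difference of 0.77 (SE 0.20, limma adjusted p = 0.0514) and Cct8 of 0.64 (SE 0.19, limma adjusted p = 0.0776). Cct4 had 0.49 (SE 0.16), Cct2 0.43 (SE 0.14) and Cct3 0.39 (SE 0.21), at limma adjusted p of 0.106, 0.0981 and 0.302. For 7 of 8 subunits, again all but Cct3, the groups did not overlap, which was so for 12.9% of all genes on the higher side, and the median difference was 0.63 against 0.02 over all genes. Against 0, only Tcp1 (−0.88 ± 0.08), Cct5 (−0.54 ± 0.32) and Cct6a (−0.36 ± 0.20) were past the threshold on the subpolysomal side, 3 of 8 against 14.5% of all genes. These calls were lost with each array centred, where Tcp1 alone stayed below 0, at −0.30 (limma adjusted p = 0.0764). The 3 subunits then called, among them Cct7 at 0.48 and Cct8 at 0.66, lay on the polysomal side, as did 5675 of all 11035 genes. Still only 1 of 8 lay above the median of all genes. All 8 subunits had their lowest recruitment of the group in replicate 2, Cct4 by a small margin. The 3′ to 5′ ratios and low median signals of the Rpl11 shRNA arrays, given above, move with every difference from this group, and their part in the result was not tested. The 2 comparisons share the control construct gradients, so likeness between them is not independent.

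Set directly against each other, the 2 shRNAs gave no called difference in recruitment for the subunits: 0 of 8 passed in limma and 0 of 8 had an unadjusted p below 0.05, against 0.553% of all genes called. The differences, Rps19 minus Rpl11 shRNA, ran from −0.35 for Cct7 (95% interval −0.80 to 0.10) to −0.04 for Cct8 (−0.47 to 0.38). For Tcp1 the difference was −0.19 (−0.48 to 0.11). Intervals of this width leave room for differences as large as some of the effects themselves. The control construct against no construct likewise gave 0 of 8 subunits called in limma (0 at an unadjusted p below 0.05) and 0 genes called in all, with 497 genes at an unadjusted p below 0.05.

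The mean spread among the subunits was smaller with either shRNA, though single gradients overlapped. Between the lowest and highest subunit of a gradient, recruitment spanned 1.38 ± 0.15 with the control construct and 1.69 ± 0.43 with none, 1.10 ± 0.12 with the Rps19 shRNA and 0.96 ± 0.22 with the Rpl11 shRNA. The widest Rps19 shRNA gradient and the narrowest control construct gradient both stood at 1.22. Tcp1 lay below the median of the other 7 subunits by a difference of −1.15 ± 0.15 with the control construct and −1.18 ± 0.20 with none. That distance was −0.62 ± 0.11 with the Rps19 shRNA and −0.65 ± 0.11 with the Rpl11 shRNA. Its 6 control values ran from −1.40 to −0.98 and its 6 shRNA values from −0.75 to −0.53, without overlap. These spans are a description and were not tested.

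The 2 pools were then compared separately, to see in which of them a subunit differed. For Tcp1 with the Rps19 shRNA the polysomal signal was 8833, 7743 and 8091 against 8799, 8483 and 8390 with the control construct, a log2 difference of −0.06 (SE 0.15, limma adjusted p = 0.888). The subpolysomal signal was 19446, 16038 and 16538 against 33535, 30615 and 33675, a log2 difference of −0.91 (SE 0.19, limma adjusted p = 0.0667). In the polysomal pool 1 value thus lay above and 2 below the control values, and in the subpolysomal pool all 3 lay below them. In limma 0 of 8 subunits passed in either pool (all genes called were 1.16% polysomal and 0.136% subpolysomal). At an unadjusted p below 0.05 were 2 of 8 in each pool. Of all 11035 genes, 1847 were in the polysomal and 1469 in the subpolysomal pool. With the replicate number as a block, 0 of 8 subunits passed in either pool, and the genes called went from 128 to 32 polysomal and from 15 to 9 subpolysomal.

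With the Rpl11 shRNA the calls of different subunits fell in different pools. In the polysomal pool 5 of 8 were higher (10.2% of all genes). Cct8 rose by 0.92 (SE 0.16, limma adjusted p = 0.00348), from 4919, 4799 and 4119 to 10106, 7560 and 8581. Cct3 rose by 0.86 (SE 0.15, limma adjusted p = 0.00364), from 4999, 6068 and 5777 to 8923, 10872 and 10862. Neither gene's groups overlapped, and the control values of both were the lower. Cct6a rose by 0.74, Cct7 by 0.67 and Cct5 by 0.56, at limma adjusted p of 0.00587, 0.0179 and 0.0368. For Tcp1, Cct2 and Cct4 the polysomal differences were 0.25, 0.07 and −0.15 and did not pass. Without control construct replicate 1 or 3 the calls numbered 3.

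In the subpolysomal pool Tcp1 fell by 0.79 (SE 0.19, limma adjusted p = 0.0295), from the control signals given above to 18700, 19125 and 18587, the 1 subunit of 8 called lower (5.31% of all genes). Cct4 was next at −0.63 (SE 0.22, limma adjusted p = 0.0899). Among subunits called in the polysomal pool, Cct3 had 0.47 here, Cct8 0.28, Cct6a 0.11, Cct7 −0.10 and Cct5 −0.30, none past the threshold. The subpolysomal Tcp1 call was lost without any of 5 of the 6 gradients, remaining without Rpl11 shRNA replicate 1. Tcp1 thus differed in the subpolysomal and not detectably in the polysomal pool, and Cct3, Cct5, Cct6a, Cct7 and Cct8 passed in the polysomal and not in the subpolysomal pool. Whether the pools differ in these changes is the recruitment test, which Tcp1, Cct5 and Cct6a passed.

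**Figure D2:**
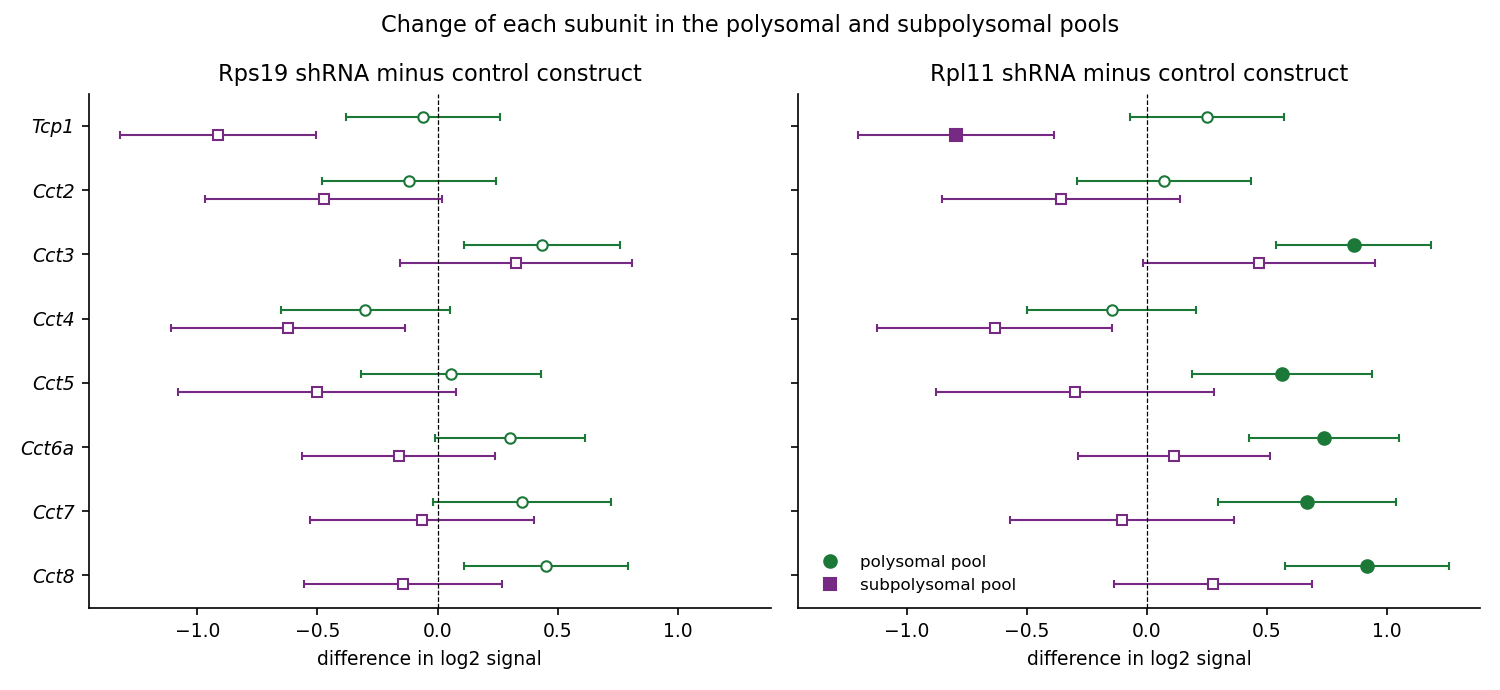
Difference in log2 signal (horizontal axis) between each shRNA and the control construct for the 8 subunits (vertical axis), in the polysomal (circles) and subpolysomal (squares) pools, with 95% intervals from limma, filled where the adjusted p is below 0.05. Filled circles stand at 0.56 to 0.92 for 5 subunits with the Rpl11 shRNA, and the 1 filled square is Tcp1 at −0.79.

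Level, the mean over both pools, was followed for all 8 subunits. In bulk samples fewer cells of a type and less RNA per cell cannot be told apart. With the Rps19 shRNA 0 of 8 subunits passed in limma, against 0.807% of all genes called. At an unadjusted p below 0.05 were 3 of 8 subunits and 1682 of all 11035 genes. With the replicate number as a block the genes called went from 89 to 17, and the subunits stayed at 0. Tcp1 had −0.49 (SE 0.15, limma adjusted p = 0.164), Cct4 −0.46 (SE 0.17, 0.237) and Cct3 0.38 (SE 0.15, 0.275), so the subunits did not lean one way, with 4 of 8 above 0.

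With the Rpl11 shRNA the level of 2 of 8 subunits was higher (8.73% of all genes). Cct3 had 12.76, 12.74 and 12.85 with the control construct and 13.19, 13.73 and 13.43 with the Rpl11 shRNA, a rise of 0.67 (SE 0.15, limma adjusted p = 0.0148). Cct8 had 12.62, 12.43 and 12.31 against 13.19, 13.02 and 12.94, a rise of 0.60 (SE 0.14, limma adjusted p = 0.0161). Neither pair of groups overlapped. Cct6a had 0.43 (limma adjusted p = 0.0615), Cct7 0.28, Cct5 0.13, Cct2 −0.14, Tcp1 −0.27 and Cct4 −0.39, none past the threshold. With each array centred 4 of 8 passed as higher, as did 3286 of all 11035 genes, since centring moved the median of all genes from −0.08 to 0.32. Without control construct replicate 2 neither call remained, and without control construct replicate 3 or Rpl11 shRNA replicate 2 there was 1 call. Between the shRNAs Cct8 was lower with the Rps19 than with the Rpl11 shRNA, 12.58, 12.52 and 12.73 against the values above (−0.44, SE 0.14, limma adjusted p = 0.0481). That is 1 of 8 subunits against 8.60% of all genes called lower, a share close to that of all genes. For the control construct against none 0 of 8 subunits and 0 genes were called in limma (0 subunits and 260 genes at an unadjusted p below 0.05).

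**Figure D3:**
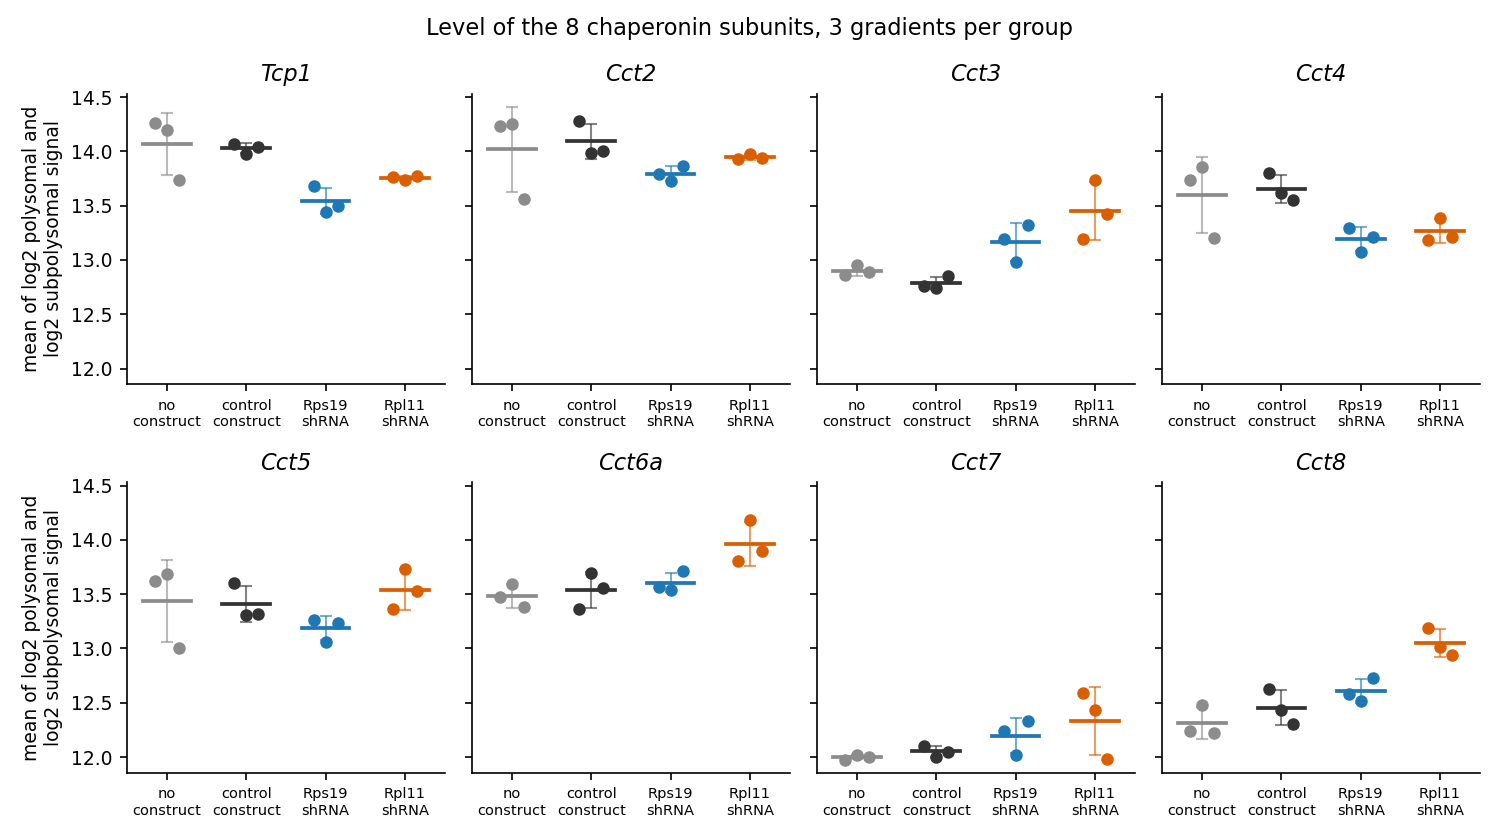
Level (mean of log2 polysomal and log2 subpolysomal signal, vertical axis) of each subunit in the 4 groups (horizontal axis), drawn as in the plot of recruitment. Cct3 and Cct8 stand higher with the Rpl11 shRNA than with the control construct, without overlap, and levels of different subunits come from different probe sets and cannot be ranked.

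More than 1 probe set passed the filter for 5 of the 8 subunits, which gives 14 further readings of the same mRNAs from the same arrays. In the control construct all 14 had a recruitment below 0, with a median of −0.78. The difference in recruitment was above 0 in 12 of 14 with the Rps19 shRNA (median 0.33, from −0.10 to 1.23) and in 12 of 14 with the Rpl11 shRNA (median 0.58, with the lowest at −0.15). The probe sets of Cct4 disagreed in size: the 2 brightest, at mean log2 signals of 13.43 each, gave 0.32 and 0.71 with the Rps19 shRNA, and 0.49 and 0.52 with the Rpl11 shRNA. For Cct3 the readings with the Rps19 shRNA ran on both sides of 0. In level the 14 readings were split, with 7 above and 7 below 0 for the Rps19 shRNA against the control construct. With the Rpl11 shRNA 9 were above and 5 below (median 0.33, from −1.58 to 0.81). Both of these extremes came from Cct3, the −1.58 from a probe set at a mean log2 signal of 6.44. For Cct4 the level with the Rpl11 shRNA ran from −0.47 to 0.71. The probe sets used for Cct2 and Cct3 carry a suffix that marks probes shared with other sequences. Tcp1 and Cct5 have 1 probe set each, and the only other probe set of Cct8, at a mean log2 signal of 4.14, did not pass the filter. The values of Tcp1, Cct5 and Cct8 thus rest on a single reading each. The signal of Tcp1 was 0.188 to 0.358 of the highest signal on its array, and the highest such share of any subunit was 0.517, for Cct2, so no subunit was at the top of the scale.

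The partners of the chaperonin were read from lists of their own. Prefoldin, which delivers actin and tubulin chains, lay on the other side of the gradient: with the control construct 4 of its 6 subunits were higher in the polysomal pool (17.8% of all genes were) and 1 was lower (18.9%), with a median of 0.58. Pfdn4 was at 0.83 ± 0.10, Pfdn6 at 0.68 ± 0.27 and Vbp1 at 0.47 ± 0.18, and Pfdn5 was the lower one at −0.81 ± 0.26. Of the actin and tubulin substrates 8 of 10 tested were lower and 0 higher, with a median of −1.18, among them cytoplasmic gamma actin Actg1 at −1.18 ± 0.16, Tubb5 at −1.21 ± 0.19, Tuba4a at −1.23 ± 0.11 and Tubb2a at −1.43 ± 0.41. The WD40 repeat substrates had 1 of 7 higher and 0 lower, and the tubulin folding cofactors 1 of 5 higher and 2 lower. Phosducin-like cochaperones, which bind the chaperonin with its substrates, had 1 of 3 lower, Txndc9 at −0.45 ± 0.12. Chaperonin-like genes and the mitochondrial chaperonin had 1 of 5 higher and 2 lower, the latter Bbs12 at −0.79 ± 0.12 and the mitochondrial cochaperonin Hspe1 at −0.71 ± 0.15.

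With the Rps19 shRNA 0 genes of these 6 lists passed in recruitment. The smallest limma adjusted p among them was 0.107, for Txndc9 at a difference of 0.53 (SE 0.14). With the Rpl11 shRNA 3 of 10 actin and tubulin substrates were higher (2.11% of all genes), Tubb2a by 1.05 (SE 0.27, limma adjusted p = 0.0484), Tubb5 by 0.93 (SE 0.16, 0.0121) and Tubb4b by 0.67 (SE 0.16, 0.0421). Tubb5 went from −1.21 ± 0.19 to −0.28 ± 0.01. Txndc9 was higher by 0.62 (SE 0.14, limma adjusted p = 0.0307). On the lower side, where 3.56% of all genes were called, Pfdn4 fell by 1.12 (SE 0.17, limma adjusted p = 0.00882), from 0.83 ± 0.10 to −0.29 ± 0.28, and Mkks, a chaperonin-like gene of the BBSome pathway, fell by 0.69 (SE 0.16, limma adjusted p = 0.0315). The WD40 repeat substrates and the tubulin folding cofactors gave 0 calls in limma in this comparison. Other settings and fits with gradients left out were run for the subunits and for counts over all genes. Single partner calls were not rerun, so how far they depend on the processing or on 1 gradient is not known. The marks of the Rpl11 shRNA arrays given above apply here as well, and their part in these results was not tested.

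**Figure D4:**
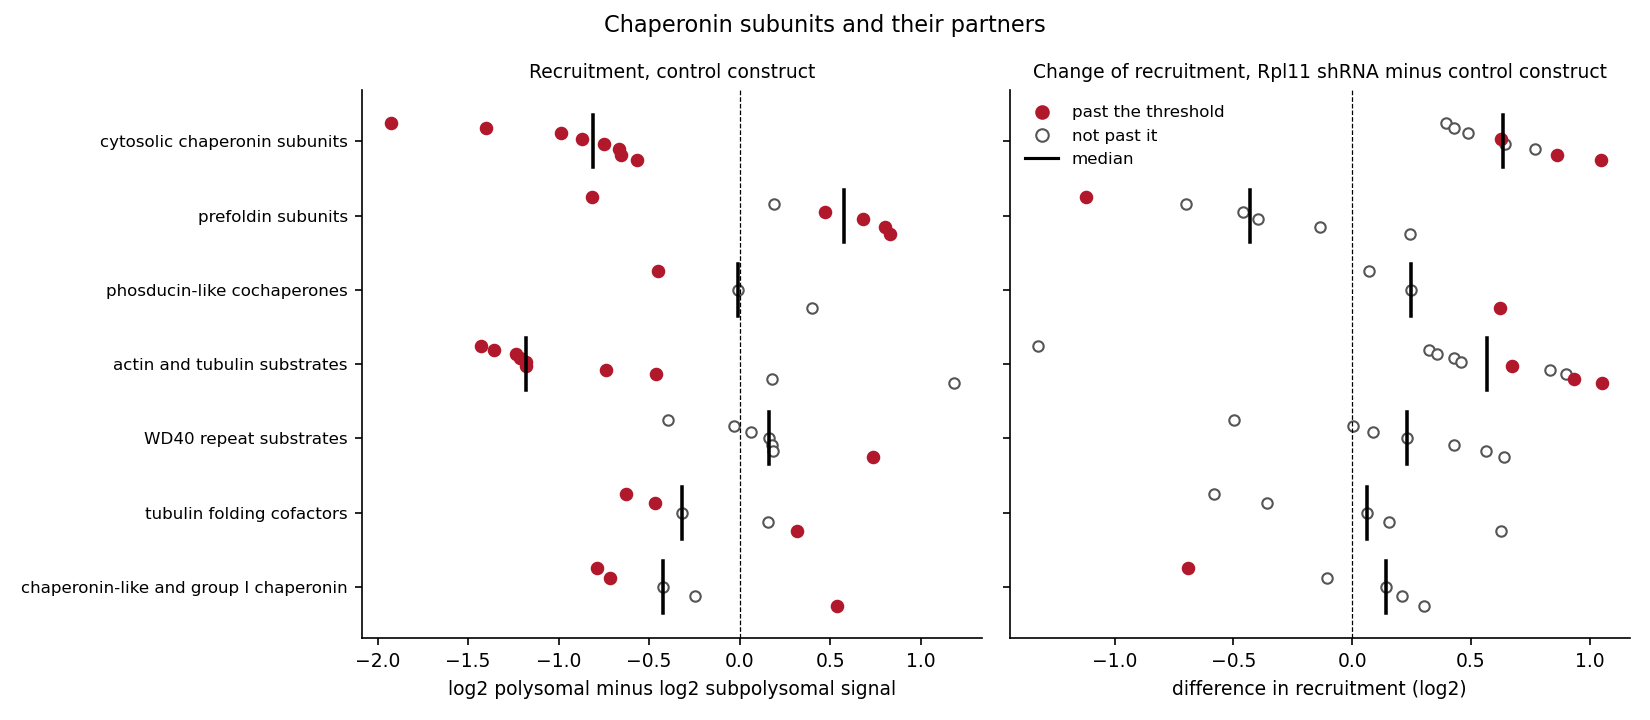
Each point is a gene of the chaperonin or of a partner list (vertical axis), placed by its recruitment with the control construct (left, log2 polysomal minus log2 subpolysomal signal) or by the difference in recruitment between the Rpl11 shRNA and the control construct (right, log2), filled where the limma adjusted p is below 0.05, with the median of each list as a bar. The chaperonin and the actin and tubulin lists have medians of −0.81 and −1.18 on the left, and prefoldin has 0.58.

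Among all genes, those nearest to Tcp1 in recruitment over the 12 gradients, by root mean square difference, were H3c4 (0.252), Dusp11 (0.279), Eef1a2 (0.301), Mcm7 (0.309) and Eif3e (0.314). Since closeness was measured over the shRNA gradients too, the choice itself favours genes that rise as Tcp1 does. Each of the 5 had a higher mean with either shRNA than in both control groups, which is therefore no separate result. H3c4, a histone gene, for example, was −1.83 ± 0.16 with the control construct, −1.32 ± 0.31 with the Rps19 and −0.68 ± 0.13 with the Rpl11 shRNA. The nearest chaperonin subunit was Cct5 (0.489, place 60 counting Tcp1 itself), and Cct8 came at place 3300. Around the median of the 8 subunits, the nearest genes outside the family were Cdt1, Pdia2, Mvp, Arfgap2 and Man2b1, at root mean square differences from 0.145 to 0.154, and of the subunits Cct6a was nearest (0.122). Cct2, Cct4 and Cct7 lay among the 9 nearest genes, Cct3 at place 22, Cct8 at place 1126, Cct5 at 1575 and Tcp1 at 6901. These distances describe 12 gradients that share a scaling and are given without a test.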

How the data were processed

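For 24 arrays the authors deposited intensity values of 45101 probe sets. MAS5, with no version, is named for them per the submitters' processing notes. Another deposited table gives each probe set's polysomal share as a fraction, polysomal over polysomal plus subpolysomal signal, per the file headers, and the signals give it back with a largest difference of 7.1e-10. Trimmed means (2% trimmed at each end) were 499.77 to 499.81 on the Rpl11 shRNA arrays and 500 on all others. The scaling was thus nearly alike, and signals were used as deposited. The small difference follows the group, and its source was not tested. The precision of each value is limited by the 3 gradients per group.

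All analysis used the log2 scale after a pseudocount of 7.8516, which is 0.1 of the median signal of 78.516. The dimmer 50% of probe sets by mean over all arrays were left out, as were controls. Each gene was read from its brightest probe set with 1 symbol, giving 11035 genes. Of all probe sets, 34958 have 1 symbol in the annotation given, 932 several and 9211 none, and 2 lack values on 6 arrays each. All 12 gradients entered a limma 3.58.1 fit (R 4.3.3) with a mean per shRNA group. Benjamini-Hochberg adjustment covered the 11035 genes, and calls were made at 0.05. These p-values measure the spread between gradients that the labels call biological replicates. Intervals are 95%. The code of the fit was checked on simulated data with planted changes and independent normal noise. That check does not measure the power for differences of the size seen in most subunits. Correlations between arrays of log2 signals ran from 0.875 to 0.965, and no array was left out. Residuals of the 2 arrays of a gradient went together in 12 of 12 gradients (0.156 to 0.601). Across groups, same replicate numbers gave correlations above 0.1 in 0 of 18 pairs for recruitment (−0.126 to 0.0871) and 7 of 18 for level (−0.332 to 0.528). Every one of the 3 pairs exceeded 0.1 between control construct and Rps19 shRNA alone, in level (0.210 to 0.528), polysomal (0.144 to 0.416) and subpolysomal signal (0.127 to 0.368). The pairing there comes from these correlations, not from the labels, and counts with the number as a block, which was fitted over all 12 gradients, stand beside those 3 results. Elsewhere numbers were not taken as pairs.

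The subunits, partner lists, markers and tests were chosen with earlier results of these data known. All 8 subunits are named. In a comparison, a partner list adds at most 4 called genes, those of lowest p, or at most 2 where none was called, and not all are printed. Genes nearest to the subunits are the 5 with the smallest root mean square difference in recruitment. Alternatives covered the pseudocount, the filter, array centring, quantile normalization, averaging of probe sets, the samples fitted, the replicate number as a block, leaving out each gradient, and, chosen after seeing the data, leaving out probe sets whose suffix marks shared probes.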

Additional observations from a re-analysis of the deposited data

Results flagged for a closer look

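Between the 2 shRNAs, the level of Cct8 differed past the threshold. It was lower with the Rps19 than with the Rpl11 shRNA by a difference of −0.44 (SE 0.142, limma adjusted p = 0.0481). All values of the one group lay below those of the other. This was 1 of 8 subunits, against 8.60% of all genes called lower in this comparison and 20.5% in either direction. The share is close to that of all genes and does not set the subunits apart. Pfdn4, the prefoldin subunit, differed in recruitment, which was higher with the Rps19 than with the Rpl11 shRNA by 0.91 (SE 0.166, limma adjusted p = 0.0475), at 0.62 ± 0.15 against −0.29 ± 0.28. Both adjusted p lie close to the threshold, and the Cct8 difference was past it in 5 of 10 other settings and with 0 of 6 gradients left out. The Pfdn4 difference was not rerun in other settings or with gradients left out. The marks of the Rpl11 shRNA arrays move with both differences, and their part was not tested. Groups of 3 gradients were not tested for outlying samples.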

How the results depend on the processing

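Counts below are of the 8 subunits past the threshold, with medians over the subunits in log2. The difference in recruitment from the control construct stayed above 0 for each subunit with either shRNA in all 10 settings run. With each array centred on its median, recruitment counts became 0 for the Rps19 and 1 for the Rpl11 shRNA, level counts 4 for the Rpl11 shRNA against the control construct (median 0.61) and 6 for Rps19 against Rpl11 shRNA (median −0.60), and the subpolysomal count for the Rpl11 shRNA 2 (median 0.23). In these 2 level comparisons centring also gave 3286 of all 11035 genes called higher and 2748 called lower, respectively. Median polysomal differences became 0.24 and 0.99, and the recruitment of the control construct against none −0.20. For place in the gradient (polysomal against subpolysomal), centring moved the median of all genes from −0.08 to 0.56 with the control construct and from −0.09 to 0.72 with none, and the subunits' medians became 0.000754 (none), −0.17 (control construct), 0.16 (Rps19 shRNA) and 0.32 (Rpl11 shRNA) with 3, 2, 3 and 3 past the threshold in either direction. The 3 with the Rpl11 shRNA were on the polysomal side and are not the 3 subpolysomal calls of the main fit. Turned above 0 were Cct2 0.047, Cct3 0.21, Cct7 0.057 and Cct8 0.47 with no construct, Cct8 0.070 with the control construct, Cct2 0.35, Cct3 0.089, Cct4 0.22, Cct6a 0.12 and Cct7 0.19 with the Rps19 shRNA, and Cct2 0.36, Cct3 0.31, Cct4 0.32, Cct5 0.047, Cct6a 0.23 and Cct7 0.48 with the Rpl11 shRNA. Cct8, already above 0 with both shRNAs, became 0.68 with the Rps19 and 0.66 with the Rpl11 shRNA, past the threshold in each. The subpolysomal arrays have the higher medians, so centring raises every such value.

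Quantile normalization over all arrays gave recruitment counts of 0 and 6 (median 0.86 for the Rpl11 shRNA, −0.43 between the shRNAs), a median level of 0.030 for the Rps19 shRNA, a level count of 0 between the shRNAs, a median place of −0.77 with no construct, and with the Rpl11 shRNA a place count of 1, Cct6a turning to 0.080 and Cct2 to 0.23. Within each pool it gave 7 for the Rpl11 shRNA in recruitment, medians of −0.40 and 0.012 for the same 2 comparisons, and counts of 0, 1 and 2 for level between the shRNAs, place and subpolysomal signal with the Rpl11 shRNA. Without a filter the counts were 0 and 1 in recruitment, 0 in level between the shRNAs, 1 in place, 3 in polysomal and 0 in subpolysomal signal with the Rpl11 shRNA, with more genes tested. Fitting only the groups compared, with fewer samples, gave 0 and 0 in recruitment, 0 and 0 in level (Rpl11 shRNA, and between the shRNAs), 1 in place, 3 polysomal and 0 subpolysomal. The mean of all probe sets gave 1 in recruitment with the Rpl11 shRNA, 4 in place with the Rps19 shRNA and a median place of −0.90 with no construct. Probe sets without shared probes, added after seeing the data, gave a median place of −0.86 with no construct and a place count of 5 with the Rpl11 shRNA. A pseudocount of 1 median signal gave 1 in subpolysomal signal with the Rps19 shRNA. The replicate block gave 0 and 1 in recruitment and 0 in level between the shRNAs, where the samples share only the number. Where no construction shows it, the cause was not tested.

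With 1 gradient left out, recruitment counts were 0 to 0 with the Rps19 shRNA and 1 to 5 with the Rpl11 shRNA, the 5 without Rpl11 shRNA replicate 2 and 1 without each other gradient. Level counts were 0 to 3 for the Rpl11 shRNA (0 without control construct replicate 2, 1 without replicate 3 of it or Rpl11 shRNA replicate 2) and 0 to 2 between the shRNAs (2 without Rpl11 shRNA replicate 1, otherwise 0). Polysomal counts with the Rpl11 shRNA were 3 to 5 (3 without control construct replicate 1 or 3), and subpolysomal counts 0 to 1. Place counts were 3 to 5 with the Rps19 shRNA and 1 to 2 with the Rpl11 shRNA. The median place with no construct was −0.87 to −0.79, and the median polysomal difference with the Rps19 shRNA 0.12 to 0.22. Over all genes the recruitment calls with the Rps19 shRNA numbered 96 and became 0 without a filter, with centring, with only the groups compared and with the block, 154 with the larger pseudocount, 21 with the mean of probe sets and 62 without shared probes. With the Rpl11 shRNA 626 became 95, 166, 0 and 335 in the first 4 of these. The 89 level calls with the Rps19 shRNA became 7, 57, 6 and 17 in these 4, and 3 to 14 with 1 gradient left out. Of level calls with the Rpl11 shRNA 43.2% were higher, 89.6% with centring and 56.2% with quantile normalization over all arrays; of the calls of place with the control construct 48.6%, 94.0% and 59.2%.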

Other observations

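The level of several partners differed with the Rpl11 shRNA. Of the actin and tubulin substrates tested 2 of 10 rose (8.73% of all genes were called higher and 11.5% lower), Tuba1a by 1.61 (SE 0.29, limma adjusted p = 0.00523) and Tubb2a by 0.96 (SE 0.20, 0.00868), and 1 of 10 fell, Actb, cytoplasmic beta actin, which fell by 0.87 (SE 0.17, 0.00826). Of the WD40 repeat substrates 1 of 7 rose and 1 of 7 fell, shares close to those of all genes. Cdc20, the mitotic activator of the anaphase-promoting complex, rose by 1.21 (SE 0.14, limma adjusted p = 0.00148), and its relative Fzr1 fell by 1.58 (SE 0.39, 0.0184). Of 3 phosducin-like cochaperones tested Txndc9 rose by 0.87 and Pdcl by 0.83 (limma adjusted p 0.00307 and 0.0324), and of 6 prefoldin subunits Vbp1 rose by 0.57 and Pfdn4 by 0.63 (0.0302 and 0.048). Among 5 tubulin folding cofactors 2 rose, Tbce by 0.77 and Tbcb by 0.67, and 1 fell, Tbcd, which fell by 0.46 (0.00724, 0.012 and 0.024). Chaperonin-like genes and the mitochondrial chaperonin gave 0 calls of level among 5 tested. None of these partner calls was rerun in other settings or with gradients left out. The marks of the Rpl11 shRNA arrays move with the levels of the partners too, and their part was not tested.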
